A study of Rattus norvegicus with 6 samples.

Results

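Somatostatin Npy interneurons of the rat nucleus accumbens were selected from single-nucleus RNA sequencing by a marker rule read on UMIs (unique molecular identifiers, each standing for 1 captured RNA molecule). Kept nuclei had 500 or more detected genes and no more than 5% of UMIs from mitochondrial genes. The rule asked for at least 1 UMI of Gad1 or Gad2, at most 1 UMI of the glial genes Mog, Aqp4, Pdgfra and Csf1r together, at least 1 UMI of Sst, at least 4 UMIs of Sst, Npy and Chodl together, no UMI of Drd2 and at most 1 UMI of Slc5a7. Chat and Slc18a3, which the rule also names, were not analysed here. The rule found 100 nuclei among 61609 kept nuclei and 64260 barcodes. Of the 38548 kept nuclei with a Gad1 or Gad2 UMI, 33275 passed the glial limit, 1164 of these had an Sst UMI, 125 reached 4 UMIs of the 3 peptide and membrane protein genes, 102 had no Drd2 UMI and 100 passed the cholinergic limit.

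The accumbens tissue came from adult rats of the Sprague-Dawley strain, aged 90 to 120 postnatal days, and every rat had self-administered heroin. They worked for 7 days on a fixed ratio of 1, for 4 days on a fixed ratio of 3, took a progressive ratio test on day 12 and returned to the fixed ratio of 3 on days 13 and 14. After the last session they were given saline or the opioid receptor blocker naloxone, and tissue was taken 1 h after the injection. Frozen punches, 2 mm deep, from 12 rats (6 male, 6 female) were combined into 6 libraries of pooled sex, called saline replicates 1, 2 and 3 and naloxone replicates 4, 5 and 6. Heroin history is common to both groups, and rats without heroin were not analysed here. The sources used here do not say which rats make up a library, so p-values measure the spread between libraries.

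Striatal somatostatin interneurons are sparse, locally projecting GABA neurons. They release the peptides somatostatin and neuropeptide Y, and many make nitric oxide with the neuronal synthase encoded by Nos1, which acts on soluble guanylyl cyclase in neighbouring cells. They arise from the medial ganglionic eminence, where Lhx6 and Sox6 direct their differentiation, and substance P excites them through the receptor encoded by Tacr1. Chodl encodes a membrane protein found on the long-range somatostatin type of cortex.

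The interneuron nuclei carried 985034 UMIs, with a median of 8320 UMIs per nucleus (range 2146 to 35028). There were 11, 18 and 33 of them in saline replicates 1 to 3 and 8, 17 and 13 in naloxone replicates 4 to 6. Saline replicate 3 supplied 38.1% of all their UMIs and is left out in turn in the comparisons of treatment. Whole libraries held 55739350 to 76272798 UMIs. Among kept nuclei 420 barcodes occurred in more than 1 library, but no barcode was shared between interneuron nuclei of different libraries, and 4 interneuron nuclei had a barcode that occurred in another library. Doublet scoring marked 5 of the 100 nuclei, and 11 carried both Xist and Y-linked UMIs. Markers of other classes were present in part. The 10 spiny neuron markers summed to 1069 to 3222 CPM by library, against 4153 to 5617 CPM in other GABAergic nuclei (CPM, the UMIs of a gene for each 1000000 UMIs of the class in a library), with Drd2 at 0 by the rule. The Vip-type interneuron list had 1093 UMIs (841 to 2540 CPM, Vip at 0), against 1536 to 1838 CPM in other GABAergic nuclei. The oligodendrocyte list had 194 UMIs (81.4 to 750 CPM, highest in naloxone replicate 4), the astrocyte list 154 UMIs (42.3 to 362 CPM, Aldh1l1 at 0) and the microglia list 64. The cholinergic, Pthlh, glutamatergic, oligodendrocyte precursor and endothelial lists had 22, 29, 13, 24 and 3 UMIs, with Pthlh, Pvalb, Slc17a7 and Cldn5 at 0.

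Nos1 was not used to select the nuclei and therefore serves as a check of the label. A Nos1 UMI was present in 85 of 100 interneuron nuclei (85.0%; exact Clopper-Pearson 95% interval 76.5% to 91.4%, counting error only). The share was 6.95% of 32914 other GABAergic nuclei, 15.3% of 261 nuclei in a cholinergic gate, 0 of 59 nuclei in a gate on Pthlh-type interneuron genes, which allows a share of up to 5.08% if the limit is set at 3 counts, and 0.280% of 8205 nuclei in an oligodendrocyte gate. Median depths were 8320, 7674, 12900, 9336 and 1845 UMIs. With each nucleus thinned to 1000 UMIs, the share was 48.6 ± 8.11% in the interneuron nuclei (SD over n = 6 libraries), 1.79 ± 0.283% in other GABAergic nuclei and 0.126 ± 0.0300% in the oligodendrocyte gate, which lost 804 shallower nuclei. No interneuron nucleus and 317 other GABAergic nuclei were too shallow to thin. The interneuron share lay above the oligodendrocyte share. That gate admits no nucleus with a Gad1 or Gad2 UMI, so its share can understate free neuronal RNA, which was not measured.

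The markers did not mark every nucleus equally. Of the 4 markers Sst, Npy, Nos1 and Chodl, 51 nuclei had a UMI of all, 34 of 3, 12 of 2 and 3 of 1. Npy was found in 92 nuclei and Chodl in 56. Sst reached 45 UMIs in 1 nucleus of saline replicate 2, which held 72 UMIs of Sst, Npy and Chodl together, while the next nucleus had 27. At the threshold of the rule, 24 nuclei had 4 UMIs of the 3 genes and 18 of them (75.0%) had a Nos1 UMI. Just outside it, 36 nuclei had 3 UMIs and 22 of them (61.1%) had a Nos1 UMI. Among nuclei that met the other conditions with 2 UMIs and with 1 UMI, the Nos1 share was 25.3% and 10.0%.

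**Figure D1:**
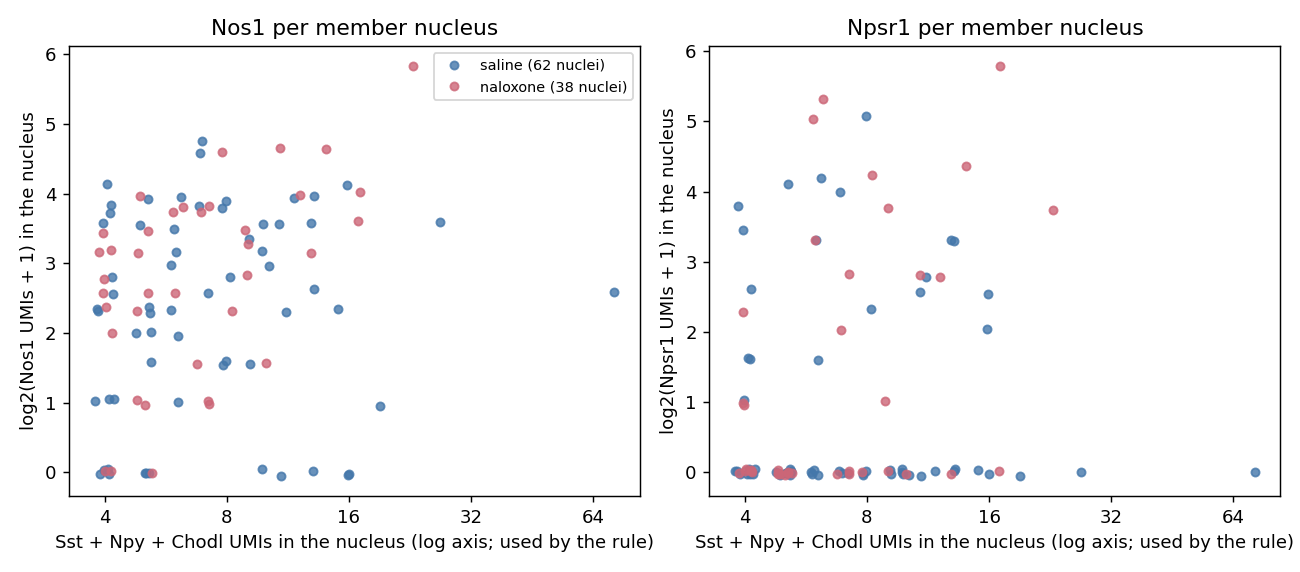
Nos1 UMIs (left) and Npsr1 UMIs (right) in each of the 100 interneuron nuclei, as log2(UMIs + 1), against their Sst, Npy and Chodl UMIs on a log axis, with a small random offset. Points are nuclei, coloured by treatment; Nos1 is present in 85 nuclei across the whole range of the selecting genes, whereas Npsr1 is at 0 in most nuclei and reaches 53 UMIs in others.

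Nos1 and the peptide receptor genes Npsr1 and Tacr1 were among the genes that stood furthest above other GABAergic nuclei. These genes describe the selected nuclei and were not tested, because the contrast is that of the rule. Nos1 stood at 744, 623 and 676 CPM in the saline libraries and at 673, 939 and 952 CPM in the naloxone libraries, against 13.6 ± 1.09 CPM in other GABAergic nuclei (SD, n = 6 libraries). All 6 libraries lay far above the comparison class, and the treatment groups overlapped. Npsr1, which encodes the receptor for neuropeptide S, had the highest ratio, with 65.7, 358 and 306 CPM after saline and 214, 873 and 476 CPM after naloxone against 2.87 ± 1.47 CPM. It was concentrated in a subset of the nuclei, 2, 6, 11, 4, 8 and 4 in the 6 libraries in order. Of these 35 nuclei 32 had a Nos1 UMI, and 13 carried at least 10 Npsr1 UMIs.

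Tacr1, the substance P receptor gene, was at 788, 521 and 684 CPM after saline and 383, 1124 and 1238 CPM after naloxone, against 22.7 ± 7.46 CPM in other GABAergic nuclei. Its level was also high in the cholinergic gate (573 CPM), where 86.6% of nuclei had a UMI, and low in the Pthlh gate (5.74 CPM). It therefore set the interneuron nuclei apart from other GABAergic nuclei as a whole and from the Pthlh gate, but not from cholinergic nuclei. Among the other genes of the 20 highest ratios were Masp1 (77.7 against 1.91 CPM), a complement-pathway protease gene, Fat4 (178 against 8.09 CPM), an atypical cadherin gene, and Tox3 (450.4 against 34.2 CPM) and Tox (899.9 against 87.9 CPM), which encode HMG-box proteins. Moxd1 and Igf1, at 116 and 60.6 CPM, exceeded other GABAergic nuclei as well but were higher in the Pthlh gate (291 and 164 CPM). The rest of the 20, namely Lemd1, Igfbpl1, Gpc4, Stk32b, Nwd2, Pcdh18, Pamr1, Vstm2b and ENSRNOG00000063579, ranged from 50.7 CPM (Gpc4) to 805 CPM (Nwd2). All 20 genes were higher than in other GABAergic nuclei in 6 of 6 libraries, which the choice of the genes required.

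**Figure D2:**
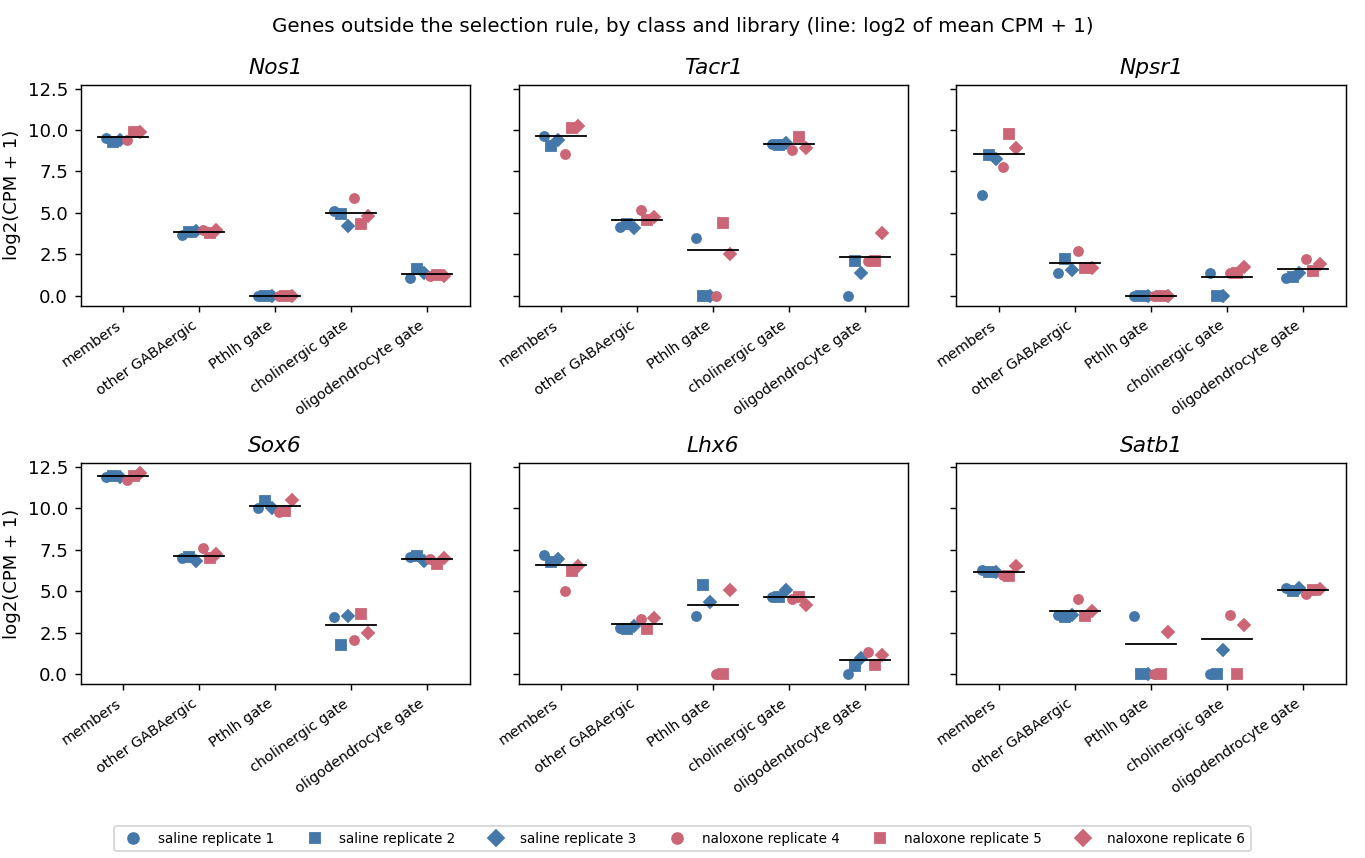
Levels of 6 genes outside the selection rule in 5 classes of nuclei, as log2(CPM + 1). Points are libraries (3 saline, 3 naloxone) and lines mark the log2 of the mean CPM + 1; Nos1 and Npsr1 are highest in the interneuron nuclei in every library, while Tacr1 is high in the cholinergic gate too and Sox6 in the Pthlh gate too.

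Transcription factors of the medial ganglionic eminence were present. Sox6 was found in 95 of 100 nuclei and measured 3831, 4008 and 3738 CPM after saline and 3321, 4031 and 4449 CPM after naloxone, against 141 ± 28.3 CPM in other GABAergic nuclei and 1114 CPM in the Pthlh gate. Lhx6 was at 142, 109 and 122 CPM after saline and 30.6, 74.0 and 89.9 CPM after naloxone, against 6.96 ± 1.71 CPM. The 3 saline libraries lay above the 3 naloxone libraries for Lhx6, a difference that did not pass the test (log2 change -0.71, SE 0.35, edgeR adjusted p = 0.685). Satb1, which acts in the maturation of somatostatin interneurons, stood at 71.5 ± 11.2 CPM against 12.9 ± 4.80 CPM. Maf was higher than in other GABAergic nuclei (262 ± 99.6 against 52.2 ± 6.34 CPM) but much lower than in the Pthlh gate (2722 CPM). Of 16 genes on this list 6 exceeded a mean of 20 CPM over both classes, and 4 of them were higher in 6 of 6 libraries and 0 lower. Over all 6472 genes above that level, 12% were higher and 12.5% lower in 6 of 6 libraries, and nothing is read from these shares, since the rule used this contrast.

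Of 11 nitric oxide pathway genes above 20 CPM, 3 were higher and 5 lower in 6 of 6 libraries. Besides Nos1, 2 genes of the list were higher in the interneuron nuclei in 6 of 6 libraries. These were Ddah1, whose product clears an endogenous inhibitor of the synthase (101 ± 16.9 against 30.5 ± 4.79 CPM), and Prkg1, the cGMP-dependent protein kinase (1752 ± 430 against 775 ± 69.1 CPM). The guanylyl cyclase subunit genes, whose products receive nitric oxide, were lower in 6 of 6 libraries. Gucy1a1 measured 87.7 ± 55.4 against 210 ± 38.4 CPM and Gucy1a2 168 ± 74.6 against 408 ± 18.9 CPM. Lower levels in all 6 libraries were also found for Gucy1b1, Nos1ap, an adaptor of the synthase, and Dlg4, the postsynaptic scaffold.

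Receptor and channel genes gave a further profile. Of 11 monoamine and acetylcholine receptor genes above 20 CPM, 6 were higher in 6 of 6 libraries. The muscarinic receptor gene Chrm2 measured 295, 514 and 541 CPM after saline and 612, 762 and 545 CPM after naloxone, against 59.8 ± 15.1 CPM in other GABAergic nuclei. The naloxone libraries lay above the saline libraries, with a log2 change of 0.51 (SE 0.25) that did not pass the test (edgeR adjusted p = 0.685). The others were Chrm3 (835 ± 128 against 286 ± 50.8 CPM), the adrenergic receptor genes Adra1a (214 ± 58.5 against 59.1 ± 8.42 CPM) and Adra1b (78.8 ± 18.4 against 8.77 ± 2.39 CPM) and the serotonin receptor genes Htr2a and Htr2c. The dopamine receptor gene Drd3 and the serotonin receptor gene Htr4 were lower in 6 of 6 libraries. Of 28 glutamate and GABA receptor genes above 20 CPM, 14 were lower and 5 higher. Grin2a, an NMDA receptor subunit gene, was among the higher ones (1513 ± 298 against 442 ± 33.6 CPM). Of 23 channel genes 10 were higher and 4 lower, among them Kcnc2, a fast-spiking type potassium channel gene (920 ± 247 against 309 ± 56.6 CPM), and Scn9a (323 ± 51.3 against 129 ± 15.2 CPM). Kcnq5 was lower, at 197 ± 168 against 2946 ± 318 CPM.

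The genes with the lowest ratios were chosen among those with at least 50 CPM in other GABAergic nuclei, so their presence there was required. Calcr, the calcitonin receptor gene, and Ust had 1 UMI each in the 100 nuclei. For Calcr the ratio of pooled levels was 0.0165 (counting interval 0.000417 to 0.0918) and for Ust 0.0143 (0.000363 to 0.0798). Sulf1 and Ankrd33b had 3 UMIs each. Zfp831 had 6, Stk32a 8 and Slit2 31 UMIs. Drd3 had 6 UMIs, all in saline replicate 3, and the spiny neuron factor gene Ebf1 had 5. Ust was higher in the cholinergic gate (617 CPM) than in other GABAergic nuclei (70.7 CPM). Most of these genes were low in the Pthlh gate as well, with Calcr, Ankrd33b, Zfp831 and Stk32a at 0 CPM there.

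The opioid receptors, the targets of naloxone, were scarce and none passed the filter on low counts in these nuclei. Oprm1, the mu receptor gene, had 44 UMIs in 25 of 100 nuclei and measured 21.9, 46.7 and 69.2 CPM after saline and 15.3, 51.8 and 10.6 CPM after naloxone. The groups overlapped. Its level lay below that of other GABAergic nuclei (67.9 ± 5.35 CPM) in 5 of 6 libraries. At 1000 UMIs per nucleus, an Oprm1 UMI was found in 3.09 ± 2.36% of interneuron nuclei, 6.69 ± 0.461% of other GABAergic nuclei and 0.848 ± 0.108% of the oligodendrocyte gate. Oprl1, the nociceptin receptor gene, had 14 UMIs in 13 nuclei and lay above other GABAergic nuclei in 5 of 6 libraries (17.0 ± 12.5 against 4.90 ± 0.423 CPM). Oprd1 and Oprk1 had 5 UMIs each. Opioid peptide precursors were also low. Penk, at 28.2 ± 23.0 CPM, was below other GABAergic nuclei (57.4 ± 13.5 CPM), and Pnoc, the nociceptin precursor gene, had 23 UMIs and ranged from 0 to 42.3 CPM against 1.98 ± 0.653 CPM, higher in 5 of 6 libraries.

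Nuclei without a Nos1 UMI formed a minority with a partly different profile. There were 1, 4 and 7 of these 15 nuclei in saline replicates 1 to 3 and 2, 1 and 0 in naloxone replicates 4 to 6. Their median depth of 8119 UMIs was near the 8476 UMIs of the 85 Nos1-positive nuclei. Chodl was found in 20% of them against 62.4% of Nos1-positive nuclei, Tacr1 in 60.0% against 88.2%, Npsr1 in 20% against 37.6%, Sox6 in 86.7% against 96.5% and Lhx6 in 46.7% against 57.6%. These shares were chosen after their values were seen and were not tested. Their spiny neuron markers had a median of 12 UMIs per nucleus against 13. Pooled over libraries, several marker lists of other classes were higher in them than in Nos1-positive nuclei. The Vip-type list had 1694 against 983 CPM, oligodendrocytes 341 against 166 CPM and astrocytes 227 against 141 CPM. These pooled values lean on saline replicate 3, with 114235 UMIs of such nuclei, against 32586 in saline replicate 2, the next largest. By library the astrocyte list was higher in them in saline replicate 3 alone (289 against 95.7 CPM). The Vip-type list was lower in them in saline replicate 1 and naloxone replicate 4, and the oligodendrocyte list in saline replicate 1 and naloxone replicate 5. The oligodendrocyte list was highest in naloxone replicate 4, at 1078 CPM. Glutamatergic markers had 56.8 against 3.71 CPM, from 10 and 3 UMIs, and all 10 lay in saline replicate 3. The oligodendrocyte precursor, Pthlh and endothelial lists were higher too, from few UMIs. Microglia (51.2 against 68.0 CPM) and cholinergic markers (17.1 against 23.5 CPM) were lower, and spiny neuron markers near equal (1904 against 1892 CPM).

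The share of interneuron nuclei did not separate the treatment groups. Saline replicates 1 to 3 had 0.139%, 0.124% and 0.355% of kept nuclei in this class, and naloxone replicates 4 to 6 had 0.0746%, 0.155% and 0.158%, with exact 95% intervals of 0.245% to 0.498% in saline replicate 3 and 0.0322% to 0.147% in naloxone replicate 4. Saline replicate 3 was higher than the other libraries, and the rest overlapped. Group means were 0.206 ± 0.129% for saline and 0.129 ± 0.0474% for naloxone (SD over n = 3 libraries in each group), which differed by -0.0768 percentage points (exact two-sided permutation test, p = 0.6, where 0.1 is the smallest that 3 libraries against 3 allow). Without saline replicate 3 the difference was -0.00234. At 1000 UMIs a Nos1 UMI was found in 54.1%, 43.0% and 44.6% of the nuclei after saline and 38.4%, 60.5% and 50.7% after naloxone. The means of 47.2 ± 6.02% and 49.9 ± 11.1% differed by 2.62 percentage points, less than the spread (exact permutation p = 0.7), and by -2.71 without naloxone replicate 5. Since a nucleus is counted by its UMIs, fewer such cells and fewer Sst, Npy and Chodl UMIs per cell cannot be told apart.

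**Figure D3:**
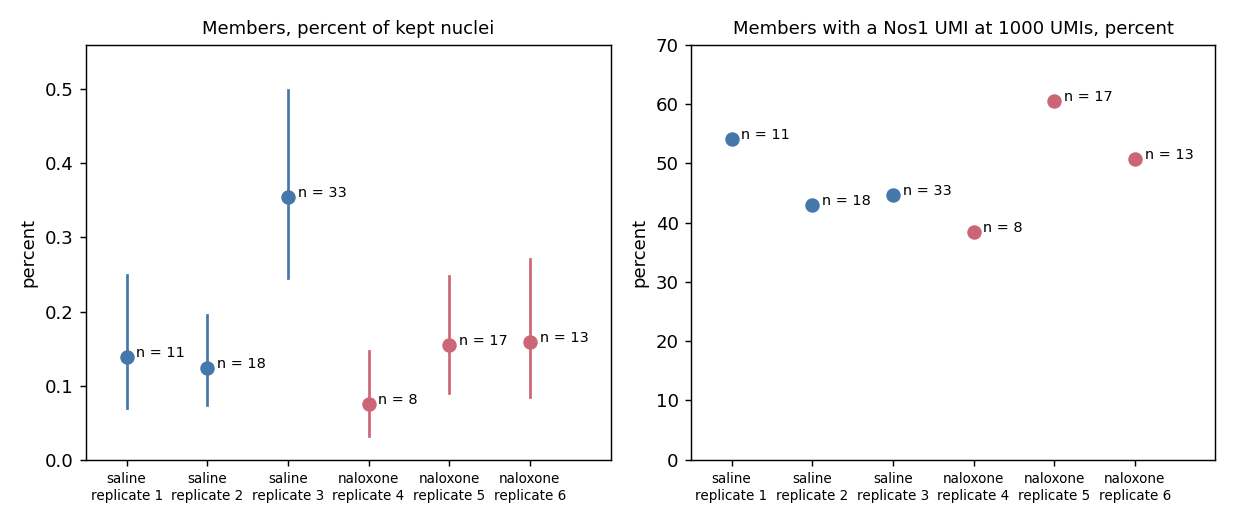
Interneuron nuclei as a percent of kept nuclei in each library with exact 95% intervals (left), and the percent of them with a Nos1 UMI after thinning to 1000 UMIs (right). Points are libraries labelled with their number of interneuron nuclei; saline replicate 3 lies highest on the left and the treatment groups overlap on the right.

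Naloxone was then compared with saline by summing the UMIs of the interneuron nuclei in each library, to ask which genes differ 1 h after injection. Of 2705 genes with enough counts, 3 were called by edgeR's quasi-likelihood test at an adjusted p under 0.05 (0.111% of genes tested), all lower after naloxone. An unadjusted p under 0.05 was found for 200 genes (7.39%), of which 88 were higher (3.25%). Hsp90aa1, the stress-inducible form of the cytosolic HSP90 chaperone, measured 416, 233 and 218 CPM after saline and 61.2, 74.0 and 58.2 CPM after naloxone. Every naloxone library lay below every saline library. It fell by 2.03 on the log2 scale (SE 0.34, edgeR adjusted p = 0.0273). AABR07000398.1 (ENSRNOG00000047746) measured 482, 623 and 631 CPM after saline and 199, 133 and 206 CPM after naloxone, a log2 change of -1.66 (SE 0.26, edgeR adjusted p = 0.0273). ENSRNOG00000062930, for which the files give no symbol, went from 219, 233 and 333 to 76.5, 74.0 and 89.9 CPM, a log2 change of -1.70 (SE 0.29, adjusted p = 0.0273). For both the groups did not overlap.

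The calls depended on single libraries and on which nuclei were summed. No gene was called when saline replicate 3 was left out, 1 when naloxone replicate 5 or naloxone replicate 6 was left out, and 6 when saline replicate 2 or naloxone replicate 4 was left out. The gene called without naloxone replicate 5 was none of the 3 above, and the one called without naloxone replicate 6 was AABR07000398.1. DESeq2 called 1 gene, AABR07000398.1. No gene was called among Nos1-positive nuclei alone. None was called either in a gate on Nos1, an alternative chosen after seeing the data, which took 160 nuclei with at least 3 Nos1 UMIs and at least 1 UMI of Sst, Npy and Chodl, 70 of them among the 100. For Hsp90aa1 the adjusted p was 0.196 with DESeq2, 0.140 without saline replicate 3, 0.0815 without naloxone replicate 5, 0.145 without naloxone replicate 6 and 0.604 with doublets left out, with log2 changes from -2.26 to -1.88. Its log2 change was -1.64 in Nos1-positive nuclei (adjusted p = 0.444) and -0.85 in the Nos1 gate (0.791). Nuclei without a Nos1 UMI, which were mostly in saline libraries, held 38.9% of the Hsp90aa1 UMIs and 17.9% of all UMIs. The mitochondrial share of the sums was 0.361%, 0.476% and 0.357% after saline and 0.259%, 0.458% and 0.116% after naloxone. The part of the mitochondrial share in the result was not tested.

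Chaperones of the heat shock list formed the group with the lowest median. This list holds cytosolic and organellar chaperones, which fold proteins, and related genes that include the heat shock factor genes Hsf1 and Hsf2. It was chosen with earlier results of these samples known, so its direction is not independent evidence. Of 30 genes 13 were tested and 1 was called. Another 8 had lower values at an unadjusted p under 0.05, making 9 of 13 with Hsp90aa1 where 4.14% of all genes tested had such a p and a lower value. The median log2 change was -0.98, against 0.02 over all genes tested. In 10 of the 13 every naloxone library lay below every saline library, against 7.99% of all genes tested. The filter asks for enough counts in 3 libraries, so a gene can enter through the saline group alone. Such entry favours lower values after naloxone, which limits these counts, the median and later fits with this filter. With no filter on low counts, 12 of 29 genes of the list were lower at an unadjusted p under 0.05 (3.04% of all genes). Their median was -0.85, against -0.10 over all genes. With DESeq2 7 of 29 were lower at that limit (0.52% of all genes).

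**Figure D4:**
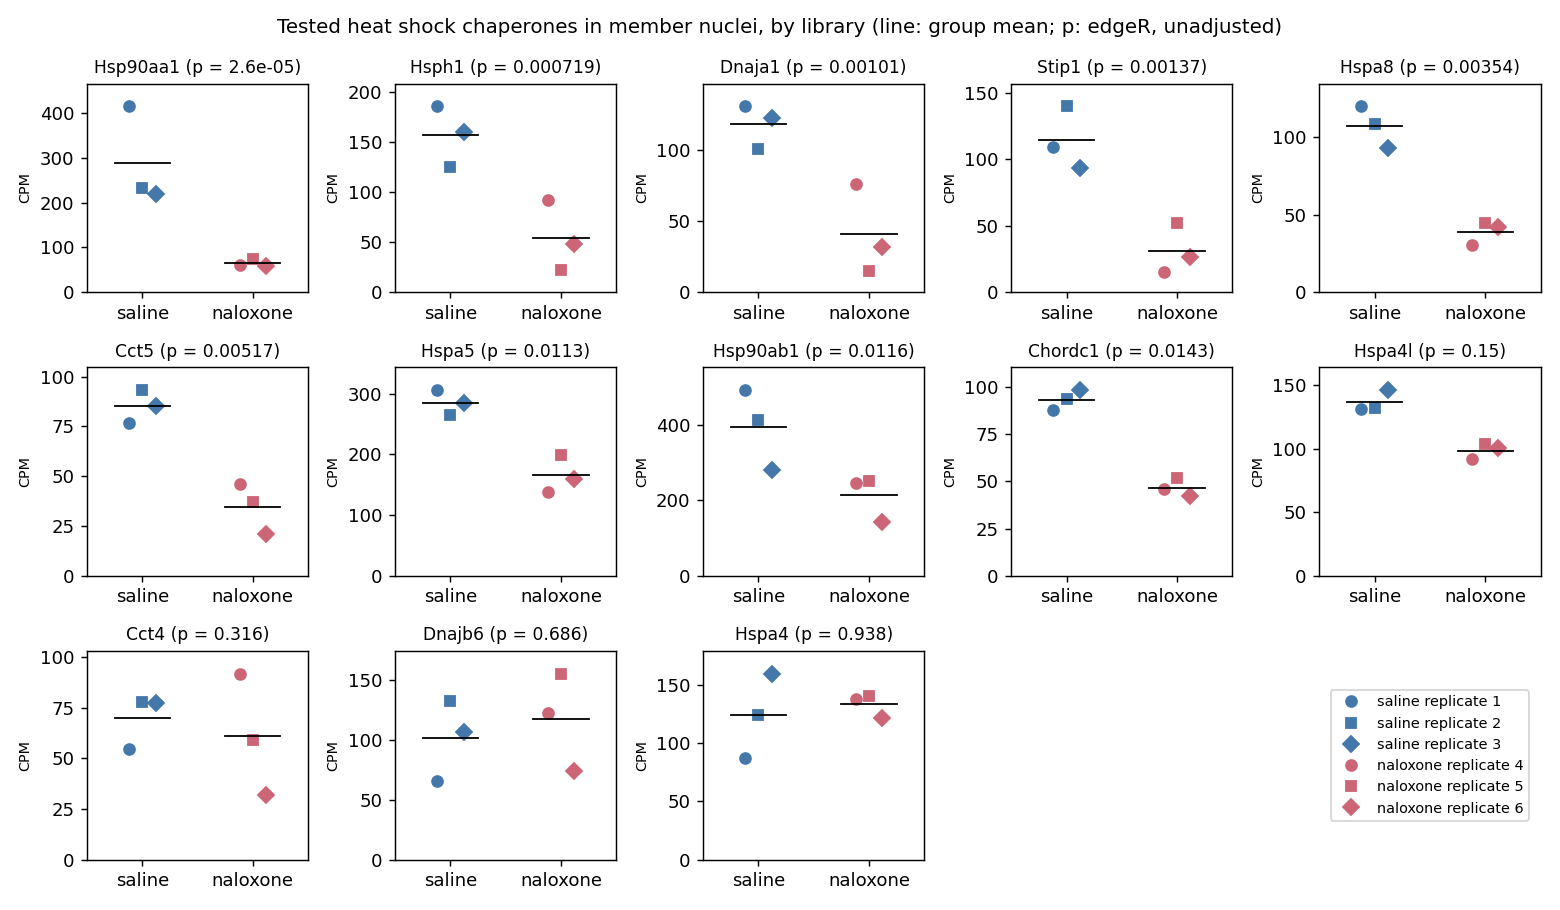
CPM of the 13 tested heat shock chaperones in the interneuron nuclei of each library, with saline and naloxone groups on the horizontal axis and axes starting at 0. Points are libraries and lines are group means; in 10 genes the 3 naloxone points lie below the 3 saline points, and Cct4, Dnajb6 and Hspa4 overlap.

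Hsph1, an HSP110 exchange factor, measured 186, 125 and 160 CPM after saline and 91.8, 22.2 and 47.6 CPM after naloxone. The groups did not overlap, and the log2 change of -1.67 (SE 0.40) did not pass the adjusted test (edgeR adjusted p = 0.389). Dnaja1, an HSP40 partner of HSP70, had 131, 101 and 122 CPM against 76.5, 14.8 and 31.7 CPM, from sums of 2 to 46 UMIs. Stip1, which links HSP70 to HSP90, had 109, 140.1 and 93.2 CPM against 15.3, 51.8 and 26.4 CPM. For Hspa8, the constitutive HSP70, the values were 120.4, 109 and 93.2 CPM against 30.6, 44.4 and 42.3 CPM. The log2 changes of Dnaja1, Stip1 and Hspa8 were -1.75, -1.64 and -1.27, with edgeR adjusted p of 0.39, 0.428 and 0.515. Hsp90ab1, the constitutive HSP90, ranged from 280 to 492 CPM after saline and from 143 to 251 CPM after naloxone (log2 change -0.85). Hspa5, the endoplasmic reticulum HSP70, ranged from 265 to 306 against 138 to 199.7 CPM (-0.71). Chordc1, an HSP90 cochaperone, and Cct5, a subunit of the TRiC chaperonin, had log2 changes of -0.98 and -1.40. Neither Hspa4 (0.02) nor Dnajb6 (0.14) was lower.

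With Nos1-positive nuclei alone, 7 of 10 tested chaperones had an unadjusted p under 0.05 and a lower value (2.78% of all genes tested there), with a median of -0.89. In the gate on Nos1 it was 6 of 17 (2.96% of all) with a median of -0.61. The median lay between -0.91 and -1.08 with any 1 library left out. It was -0.70 with doublets left out (3 of 7 lower at an unadjusted p under 0.05), -0.64 in sums by sex (2 of 3) and -2.39 with a gate of at least 8 UMIs (4 of 5). In other GABAergic nuclei of the same libraries the log2 changes were -0.36 for Hsp90aa1, -0.69 for Hsph1, -0.53 for Dnaja1, -0.58 for Stip1 and -0.77 for Chordc1, of which Dnaja1 and Chordc1 passed the test (edgeR adjusted p = 0.0455 for each).

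Heat shock elements, the inverted GAA repeats bound by heat shock factors, were looked for in the 250 bases before the start of the heat shock list genes. Matches to GAANNTTCNNGAA or TTCNNGAANNTTC, which between them read both strands, were found in 4 of the 27 listed genes with a promoter in the RefSeq table (GRCr8), and in 0.663% of all 33469 promoters. Of the 4 genes, Hspd1 and Hspe1 lie head to head, and their windows overlap and hold the same matches. Hsp90aa1 had no entry and was not searched. Of the 12 tested chaperones with a promoter, Hsph1 and Hspa8 held a match. Both promoters are shown because they hold a match. Both genes were lower in every naloxone library than in every saline library. So were Dnaja1, Stip1, Chordc1, Hsp90ab1, Hspa5, Hspa4l and Cct5, whose windows hold no match. Capitals mark the match, which starts 36 bases before the Hsph1 start and 213 and 55 bases before the Hspa8 start. The Hsph1 window is chr12:10427118-10427367 and the Hspa8 window chr8:50080264-50080513, both on the plus strand. A match describes the sequence and shows no binding.
Hsph1: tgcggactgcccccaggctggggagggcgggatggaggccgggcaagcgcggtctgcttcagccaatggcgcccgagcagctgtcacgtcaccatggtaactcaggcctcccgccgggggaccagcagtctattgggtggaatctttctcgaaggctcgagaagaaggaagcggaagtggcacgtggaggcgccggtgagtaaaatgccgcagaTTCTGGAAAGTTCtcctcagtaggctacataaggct
Hspa8: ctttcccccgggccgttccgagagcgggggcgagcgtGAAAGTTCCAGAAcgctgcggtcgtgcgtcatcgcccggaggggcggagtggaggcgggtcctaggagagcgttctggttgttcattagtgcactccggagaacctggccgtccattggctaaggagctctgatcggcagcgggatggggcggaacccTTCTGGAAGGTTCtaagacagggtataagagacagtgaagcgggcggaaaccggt

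Other lists had no called gene. Of 26 glutamate and GABA receptor genes tested, 17 had negative and 9 positive changes, with a median of -0.10. Grm5 had the smallest p among them, with 1959, 1416 and 1294 CPM after saline and 520.3, 998 and 719 CPM after naloxone (log2 change -0.99, SE 0.26, edgeR adjusted p = 0.428). Of 20 channel genes tested 3 were lower and 1 higher at an unadjusted p under 0.05, with a median of -0.09. Kcnq5, which encodes an M-type potassium channel subunit, was at 219, 444 and 322 CPM against 30.6, 155 and 10.6 CPM (log2 change -2.29, SE 0.51, adjusted p = 0.279), and 37.2% of its UMIs came from 1 nucleus. Grm5 and Kcnq5 were both higher in other GABAergic nuclei, where Grm5 averaged 3974 CPM after saline and 3956 CPM after naloxone. All 5 tested spiny neuron markers had negative changes in the interneuron nuclei (median -0.37), the smallest p being that of Meis2 (log2 change -1.97, adjusted p = 0.539). The part of these markers in the result was not tested. In the nitric oxide list 7 genes were tested and Gucy1b1 had the smallest p (log2 change -1.70, SE 0.47, adjusted p = 0.475). Nos1 itself had a log2 change of 0.39 (SE 0.22, adjusted p = 0.730). The rule read Sst and Npy, so their levels are given with no test. Sst was at 482, 700.4 and 336 CPM after saline and 275, 288 and 269.8 CPM after naloxone, and Npy at 328, 529 and 383 CPM against 230, 525 and 296 CPM. Sst did not overlap between the groups and Npy did. Scg3, a secretory granule protein gene, had a change of -1.10, with 109 to 133 CPM after saline and 30.6 to 68.8 CPM after naloxone (adjusted p = 0.515). Of the receptor genes for monoamines and acetylcholine, Htr7 had the smallest p (log2 change 1.42, adjusted p = 0.539). Of 28 immediate early genes 1 was tested, Homer1 (0.09), and of 16 glucocorticoid targets 1, Nr3c2 (0.36), so neither group could be followed at this depth.

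**Figure D5:**
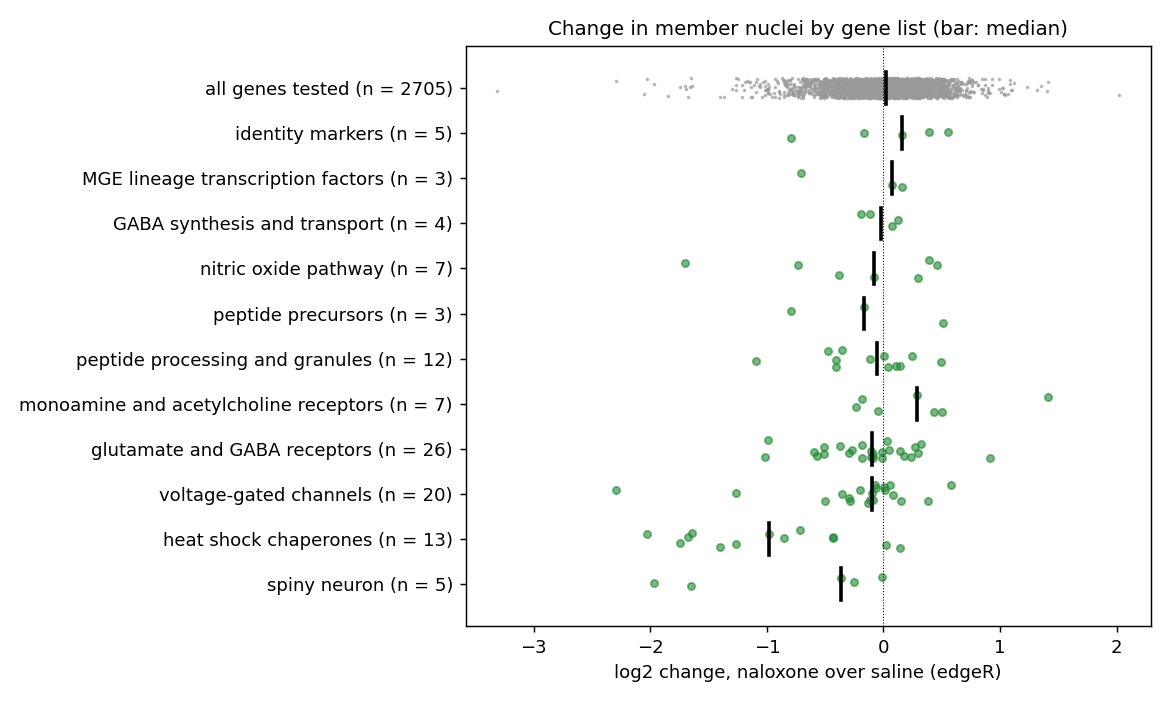
Log2 change after naloxone (edgeR) of each tested gene in the interneuron nuclei, by gene list, with all 2705 genes on top. Points are genes, Sst, Npy and Chodl of the rule included, and bars are medians; the heat shock chaperones have a median of -0.98, and the other lists with at least 3 tested genes lie between -0.37 and 0.29.

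The naloxone effect in the interneuron nuclei was finally compared with that in other GABAergic nuclei of the same libraries, by a term for class and treatment in a fit that kept the library as a block. Over the 2705 genes with enough counts in the interneuron nuclei, an alternative added after seeing the data, edgeR called 0 genes (0%), and 202 had an unadjusted p under 0.05, 125 with a lower response in the interneuron nuclei (4.62%) and 77 with a higher one (2.85%). The difference of log2 changes for Hsp90aa1 was -1.65 (SE 0.35, edgeR adjusted p = 0.219). Of the 13 chaperones, 7 had a lower response at an unadjusted p under 0.05 and 0 a higher one, with a median difference of -0.60 against 0.00 over all 2705 genes. These 13 are the genes that passed the filter in the interneuron nuclei, so the limit given above for that filter holds here too. No chaperone passed the adjusted test of a difference in response in this fit.

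With a filter over both classes 15371 genes were tested, most of them admitted by the deeper sums of the other GABAergic nuclei. In that fit 22 genes were called (0.143%), 21 with a lower response in the interneuron nuclei (0.137%) and 1 with a higher one (0.00651%). An unadjusted p under 0.05 was found for 682 genes (4.44%), 455 lower (2.96%) and 227 higher (1.48%). Of the 22 genes 8 had enough counts in the interneuron nuclei to be tested there, and 11 had at most 2 UMIs in 3 or more of the 6 interneuron sums. Hsp90aa1 was among the 22 (difference -1.68, SE 0.35, edgeR adjusted p = 0.00302). Its difference was -0.48 in the Nos1 gate (adjusted p = 0.993), -0.87 against the Pthlh gate (0.991) and -1.24 among Nos1-positive nuclei (0.477), and its adjusted p was 0.0805 when saline replicate 1 was left out and 0.218 when naloxone replicate 6 was left out. Mt-nd1, a mitochondrial gene, was also called (difference -1.32, edgeR adjusted p = 0.00289), in sums whose mitochondrial share is given above.

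Most of the other called genes came from few nuclei. Of the 22 genes 16 had over 50% of their interneuron UMIs in saline replicate 3, 16 had over 50% in only 3 nuclei, and 14 had over 50% in nuclei without a Nos1 UMI. Il1rapl2, a synaptic adhesion gene, had 34, 0 and 112 UMIs after saline and 6, 2 and 0 UMIs after naloxone, 94.2% of them in 3 nuclei. Hs3st4, a heparan sulfate sulfotransferase gene, had 1, 13 and 99 UMIs after saline and 0, 2 and 1 UMIs after naloxone, with 83.6% in nuclei without a Nos1 UMI. By contrast Hsp90aa1 UMIs were spread over 61 nuclei, with 10.9% in the highest. The count of 22 became 10 when saline replicate 3 was left out, 34 when naloxone replicate 5 was left out and 2 when naloxone replicate 6 was left out. Against the Pthlh gate it was 0. Among Nos1-positive nuclei, an alternative added after seeing the data, it was 2, both with a higher response, and in the Nos1 gate 10 of 16 called genes had a higher response.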

How the data were processed

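The values the authors deposited are raw UMI counts for each gene in each barcode, not normalized. Per the submitters' processing notes, Cell Ranger 9.0.1, Seurat 5.2.1, R 4.4.0 and the build mRatBN7.2 were used, and per the labels' protocols the libraries were 10x 3' nuclear RNA libraries. The labels speak of 44592 nuclei, the files hold 64260 barcodes, and the authors' selection of nuclei was not used here. Whether intronic reads were counted is not given in the sources used here. The interneuron nuclei and gene lists were chosen with earlier results of these data known.

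Counts of the interneuron nuclei were summed per library and scaled to CPM. Naloxone was tested against saline with edgeR 4.0.16 (quasi-likelihood F-test, TMM factors, filterByExpr, Benjamini-Hochberg adjustment, threshold 0.05). The class by treatment term had library as a block. Shares were compared by exact permutation tests. Other GABAergic nuclei were all 32914 that passed the Gad and glial conditions and no interneuron gate. The cholinergic gate asked for at least 4 UMIs of Slc5a7, the Pthlh gate for Pthlh, at least 4 UMIs of Pthlh, Pvalb and Kit and at most 1 of Sst, Npy and Chodl, and the oligodendrocyte gate for at least 2 UMIs of Mog and no Gad1 or Gad2 UMI.

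The text names each called gene, up to 10 in each direction, the markers given and, for most lists, the gene with the smallest p. Genes with the highest level in each list are not all named. The descriptions name the 20 highest and 10 lowest ratios to other GABAergic nuclei at 50 CPM or more. Other genes named were chosen after their values were seen. Both fits were run on simulated library sums in which all genes of a class had the same dispersion and single nuclei were not modelled. That setting cannot show how the fits treat genes whose UMIs come from few nuclei. Since few genes have enough counts in the interneuron nuclei, the class by treatment term was also fitted on those genes alone. Alternatives were DESeq2 1.42.0, RLE factors, no filter, each library left out, other gates and depths, doublets left out and sums by sex. Replicate libraries were kept apart, since their counts differed beyond sampling noise (chi-square per degree of freedom 1.62 to 2.34).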

Additional observations from a re-analysis of the deposited data

Results flagged for a closer look

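In the fit that tested every gene admitted by either class, the response to naloxone differed between the interneuron nuclei and other GABAergic nuclei for 22 genes, by edgeR's test of the class by treatment term. Over the genes with enough counts in the interneuron nuclei that number was 0. Differences of log2 changes, interneuron minus other GABAergic nuclei, were -1.68 for Hsp90aa1, -2.19 for Kcnq5, -2.40 for Cacna2d1, -2.08 for Meis2 and 2.12 for Zcwpw2. For the other named genes they were -4.48 for Prlr, -4.48 for Zfhx4, -4.41 for Vav3, -4.09 for Hs3st4, -3.60 for Arhgap6, -3.44 for Il1rapl2, -3.43 for Sox5, -3.43 for Sema3e and -3.40 for Tafa1. These sizes rest on few UMIs after naloxone, such as 0, 0 and 1 for Prlr, 0, 1 and 0 for Zfhx4 and 1, 0 and 0 for Vav3. They became -12.91 for Prlr without naloxone replicate 6, -13.38 for Zfhx4 without replicate 5 and -13.16 for Vav3 without replicate 4. They are therefore not measured folds. ENSRNOG00000064824 had 23 UMIs, all in saline replicate 3, 18 of them in 1 nucleus, and its fitted difference of -12.81 depends on the prior count and is no bound on a fold. Of the interneuron UMIs of Kcnq5, Meis2 and Cacna2d1, 57.4%, 56.2% and 78.9% lay in the 15 nuclei without a Nos1 UMI. In the gate on Nos1 the differences of Zfhx4, Vav3, Hs3st4, Arhgap6, Il1rapl2, Meis2, Cacna2d1 and Kcnq5 had the opposite sign. Vav3 and Cacna2d1 were called there with a higher response. With those 15 nuclei left out the differences were -1.23 for Kcnq5, -1.02 for Meis2, -0.31 for Cacna2d1, -2.04 for Zfhx4 and -1.91 for Hs3st4 (adjusted p from 0.697 to 1). With saline replicate 3 left out they were -2.77 for Zfhx4, -2.71 for Hs3st4 and -1.24 for Cacna2d1 (adjusted p from 0.449 to 1), and ENSRNOG00000064824 had no interneuron UMI left, while Kcnq5, Meis2, Hsp90aa1, Il1rapl2 and Sema3e still passed.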

How the results depend on the processing

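No paired analysis was possible because saline and naloxone libraries share no replicate number. The test of female against male nuclei was not run, since 1 library alone had at least 10 interneuron nuclei of each sex. For naloxone against saline, 3 genes were called. The count was 1 with DESeq2, 23 with no filter on low counts, 0 with a gate of at least 8 UMIs (naloxone replicate 4 then had no nuclei, and the fit used 5 libraries), 1 with doublets left out, 0 with sums by sex, 0 with Nos1-positive nuclei only and 0 with the Nos1 gate, and 0 to 6 with a library left out (0 without saline replicate 3). At these counts of 0, unadjusted p under 0.05 were found for 91 genes (gate of 8 UMIs), 56 (sums by sex), 117 (Nos1-positive nuclei), 240 (Nos1 gate) and 153 (without saline replicate 3). For the class by treatment term the count of 22 became 0 over the genes that pass the filter in the interneuron nuclei (202 at an unadjusted p under 0.05), 0 against the Pthlh gate (155 at an unadjusted p under 0.05), 2 with Nos1-positive nuclei only and 2 to 34 with a library left out. In the Nos1 gate, chosen after seeing the data and sharing nuclei with the comparison class, 8 differences reversed, to 0.10 for Zfhx4, 1.87 for Vav3, 0.0303 for Hs3st4, 0.24 for Arhgap6, 0.86 for Il1rapl2, 0.43 for Meis2, 1.63 for Cacna2d1 and 0.13 for Kcnq5. Of these 8, Vav3 (edgeR adjusted p = 0.00113) and Cacna2d1 (0.0251) were called in that gate, in the direction opposite to the main fit. The difference in the thinned Nos1 share was -2.71 to 8.36 with a library left out, reversing without naloxone replicate 5. The difference in the share of interneuron nuclei kept its sign under all alternatives run and its exact p stayed at or above 0.3. Causes were not tested. Depth limits the rest: 2705 of 25629 genes could be tested.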
